A study of Rattus norvegicus with 8 samples.

Results

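Fads1, Fads2, Elovl2 and Elovl5 encode desaturases and elongases that build long polyunsaturated fatty acids. Elovl1 encodes an elongase of mainly saturated and monounsaturated chains. Acsl3, Acsl4 and Acsl5 encode enzymes that activate long-chain fatty acids for use. These 8 genes were followed here in rat liver after a glucocorticoid and an activator of AMP-activated protein kinase. Every probe set annotated with 1 of these symbols and no other was taken, which gave 10 of the 31042 probe sets tested and 8 of the 14217 genes named. All 8 genes had a probe set. Elovl5 and Acsl5 had 2 each, and the brighter one over the 8 arrays leads for its gene.

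The animals were male Sprague-Dawley rats of 180 to 200 g with no engineered allele named, and their age is not given in the sources used here. The 4 groups of 2 arrays received dexamethasone with AICAR, dexamethasone with saline, AICAR with saline, or saline alone (vehicle). Dexamethasone, a synthetic glucocorticoid, was given at 1.5 mg/kg into muscle. AICAR, a nucleoside that cells convert into a mimic of AMP, was given at 0.7 g/kg into the peritoneum, and livers were taken after 8 h. The design asked whether this kinase alters the metabolic actions of glucocorticoids. Whole liver was measured. The labels leave unsaid whether the 2 arrays of each group hold RNA of different rats, so the tests cover the spread between arrays alone, and that spread may be technical.

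Mammals obtain linoleic and alpha-linolenic acid from food and convert them in the endoplasmic reticulum, above all in hepatocytes. FADS2 places the opening double bond, ELOVL5 lengthens the chain, and FADS1 places the next double bond, which yields arachidonic and eicosapentaenoic acid. ELOVL2 lengthens those products on the way to docosahexaenoic acid. Long-chain acyl-CoA synthetases join a fatty acid to coenzyme A, the step before it is lengthened, oxidised or placed in a phospholipid.

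The values are RMA values on the log2 scale, so that a difference of 1 is a doubling, and every ± after a difference is the standard error from limma (n = 2 arrays per group). Adjusted p-values come from limma with Benjamini-Hochberg adjustment over all 31042 probe sets, and those below 0.05 were called. Across probe sets, arrays of the same group had correlations of 0.997 to 0.998 and arrays of different groups 0.979 to 0.993. Array medians were 5.22 to 5.26, and all values of the 10 probe sets lay between 5.91 and 12.75. The hepatocyte markers were bright: their summed linear level over 9 markers was 120500 to 120700 after the combination, 120200 to 123200 after dexamethasone, 118700 to 120200 after AICAR and 122200 to 124800 in vehicle. Tsc22d3, a glucocorticoid-induced gene, was 1.44 ± 0.10 above vehicle after the combination (adjusted p = 1.35e-05) and 2.05 ± 0.10 after dexamethasone (adjusted p = 3.19e-06). The combination differed from dexamethasone by -0.61 ± 0.10 for Tsc22d3 (adjusted p = 0.00268) but by 0.84 ± 0.10 for Fkbp5 (adjusted p = 4.24e-04). Per1 stood above vehicle after dexamethasone (0.94 ± 0.12, adjusted p = 7.57e-04) and after AICAR alone (0.43 ± 0.12, adjusted p = 0.0444).

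Several markers of other liver cells and of RNA quality moved with treatment. For 12 Kupffer cell and macrophage markers the summed linear level was 2613 to 2648 after the combination, 4149 to 4540 after dexamethasone, 7895 to 7970 after AICAR and 7149 to 7256 in vehicle. Of these 12, 11 fell and 1 rose after the combination relative to vehicle, with a median difference of -3.97. Cd5l, Cd163, Adgre1 and Aif1 were then below the lower quartile of the arrays. The marker that rose, Lyz2, was the brightest after the combination and so weighed most in that sum. It read 10.96 and 10.93 after the combination and 10.36 and 10.37 in vehicle. After dexamethasone 10 of the 12 fell and 1 rose relative to vehicle (8 to 11 fell without any 1 array). Of named genes 34.4% were called after the combination and 22.7% after dexamethasone. For 8 sinusoidal endothelial markers the sum was 2895 to 2914 after the combination, 2712 to 2770 after dexamethasone, 3540 to 3577 after AICAR and 3912 to 4053 in vehicle. For 11 stellate cell and fibroblast markers it was 3224 to 3303 after the combination, 3471 to 3658 after dexamethasone, 5095 to 5124 after AICAR and 4219 to 4222 in vehicle. Of these 11, 5 rose and 3 fell after the combination relative to vehicle (median difference 0.06), and 2 rose and 3 fell after dexamethasone. Col3a1, the brightest of the 11, read 10.65 and 10.67 after the combination and 11.37 and 11.38 in vehicle. In the order combination, dexamethasone, AICAR and vehicle, the sums over 10 lymphocyte markers were 235 to 241, 275 to 308, 368 to 381 and 419.5 to 420.2. Over 4 erythroid markers they were 403 to 420, 466 to 475, 770 to 816 and 744 to 766. Over 5 cholangiocyte markers they were 461 to 488, 407 to 425, 384 to 405 and 429 to 435. After the combination 7 lymphocyte markers fell relative to vehicle and 3 were not called, with a median difference of -0.44. Ptprc fell most of them (-2.48 ± 0.10). Of the 4 erythroid markers 3 fell, and of the 5 cholangiocyte markers 1 rose. For the actin control, the probe set at the 3′ end exceeded that at the 5′ end by 1.80 ± 0.04 after the combination, 2.04 ± 0.01 after dexamethasone, 1.82 ± 0.03 after AICAR and 2.23 ± 0.04 in vehicle (SD, n = 2, log2). For the GAPDH control it did so by 0.33 ± 0.02, 0.42 ± 0.02, 0.39 ± 0.02 and 0.61 ± 0.003 in that order. The part of these shifts in the results that follow was not tested.

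After dexamethasone alone, both desaturases and Acsl5 fell at least 2-fold relative to vehicle, Acsl3 and Elovl5 fell less, and Elovl2 rose. Of the 10 probe sets, 8 fell and 1 rose (18.4% of all probe sets were called: 8.67% rose and 9.77% fell). The 10 had a median difference of -0.33, against 0.00 over all probe sets. In 9 of the 10 the dexamethasone and vehicle arrays did not overlap, as for 54.8% of all probe sets. Without any 1 array, 5 of the 9 calls remained: Fads1, Fads2, Acsl3, and the leading probe sets of Elovl5 and Acsl5.

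The promoters of the genes that moved furthest are shown, since these members fell together after dexamethasone, beside that of Elovl2, which rose. The sequences are RefSeq's for the GRCr8 assembly, written 5′ to 3′ on the strand of the gene, and all 8 members matched. Of the 250 bases before the start, only those outside the RefSeq gene are printed. Capitals mark CCAAT, the core bound by NF-Y, and GGGCGG, the GC box bound by Sp1, on either strand.
Fads1, chr1:216252442-216252604, plus strand: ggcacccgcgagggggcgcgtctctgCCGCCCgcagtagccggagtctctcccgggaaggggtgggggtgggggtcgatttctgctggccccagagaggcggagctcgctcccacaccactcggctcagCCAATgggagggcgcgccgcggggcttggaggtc
Fads2, chr1:216172191-216172283, minus strand: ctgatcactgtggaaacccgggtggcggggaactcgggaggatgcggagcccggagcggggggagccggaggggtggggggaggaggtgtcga
Acsl5, chr1:264294601-264294850, plus strand: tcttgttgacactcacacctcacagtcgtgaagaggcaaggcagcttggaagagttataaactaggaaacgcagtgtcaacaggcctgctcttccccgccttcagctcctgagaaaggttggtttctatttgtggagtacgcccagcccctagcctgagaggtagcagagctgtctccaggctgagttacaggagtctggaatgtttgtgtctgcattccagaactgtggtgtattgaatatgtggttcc
Elovl2, chr17:23750100-23750349, plus strand: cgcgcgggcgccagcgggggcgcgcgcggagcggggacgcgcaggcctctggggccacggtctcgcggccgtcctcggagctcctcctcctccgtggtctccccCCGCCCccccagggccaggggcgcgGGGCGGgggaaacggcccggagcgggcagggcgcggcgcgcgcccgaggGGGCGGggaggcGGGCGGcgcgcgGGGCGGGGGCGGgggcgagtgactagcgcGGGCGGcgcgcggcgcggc

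Fads1 and Fads2 lie side by side on chromosome 1 in RefSeq, with Fads3 on the far side of Fads2, and are read from opposite strands. In the full window, CCAAT was found for 3 of the 8 members (Fads1, Elovl5 and Acsl3), against 34.0% of 33469 rat promoters. GGGCGG was found for 5 (Fads1, Fads2, Elovl2, Acsl3 and Acsl4), against 30.5%; the match of Fads2 lies outside the printed bases. The palindromic E-box CACGTG was found for Elovl5 alone, against 5.59%. Neither the sterol element core TCACNCCAC (0.974%), the glucocorticoid receptor hexamer AGAACA (17.5%) nor the nuclear receptor hexamer AGGTCA (14.1%) was in a member's window on either strand. GC content was 73.2% for Fads1, 68.0% for Fads2 and 86.8% for Elovl2, but 50.4% for Acsl5, which held none of the motifs, against a median of 51.2% over all promoters. The Elovl1 window lies wholly inside the RefSeq gene. A match is a run of letters and not a measured binding site, and an absence covers only these 250 bases.

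Fads1, the desaturase that completes arachidonic acid, showed the widest range of the members. Its probe set read 10.01 and 9.97 after the combination, 10.37 and 10.39 after dexamethasone, 12.27 and 12.32 after AICAR, and 12.20 and 12.18 in vehicle. No 2 groups overlapped, and the combination arrays were the lowest. Dexamethasone changed it by -1.81 ± 0.07 relative to vehicle, or 3.51-fold lower (adjusted p = 9.55e-07). The combination changed it by -2.20 ± 0.07 relative to vehicle, or 4.60-fold lower (adjusted p = 1.99e-07), and by -0.39 ± 0.07 relative to dexamethasone alone (adjusted p = 0.00451). AICAR alone differed from vehicle by 0.10 ± 0.07, which was not called (adjusted p = 0.387, 95% interval -0.06 to 0.26). The AICAR effect with dexamethasone minus that without was -0.49 ± 0.10, and this interaction was called (adjusted p = 0.0112) and remained called without any 1 array.

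Fads2, which encodes the desaturase that starts the pathway, fell with dexamethasone too, but its order of groups was another. It read 8.37 and 8.34 after the combination, 7.82 and 7.96 after dexamethasone, 9.83 and 9.83 after AICAR, and 9.29 and 9.42 in vehicle. Dexamethasone arrays were the lowest and AICAR arrays the highest, with no overlap between any groups. The difference from vehicle was -1.47 ± 0.08 after dexamethasone, or 2.76-fold lower (adjusted p = 7.53e-06), and -1.003 ± 0.08 after the combination (adjusted p = 3.91e-05). The combination stood 0.46 ± 0.08 above dexamethasone alone (adjusted p = 0.00426). AICAR stood 0.48 ± 0.08 above vehicle (adjusted p = 0.00753); this call ended when vehicle replicate 1 was left out (adjusted p = 0.0533), and also when AICAR replicate 1 was (adjusted p = 0.0505). The AICAR effect with dexamethasone minus that without was -0.01 ± 0.12 (adjusted p = 0.956, 95% interval -0.28 to 0.25). Whether the interaction differs between Fads1 and Fads2 was not tested. In whole liver, fewer cells of a type and less RNA per cell cannot be told apart.

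**Figure D1:**
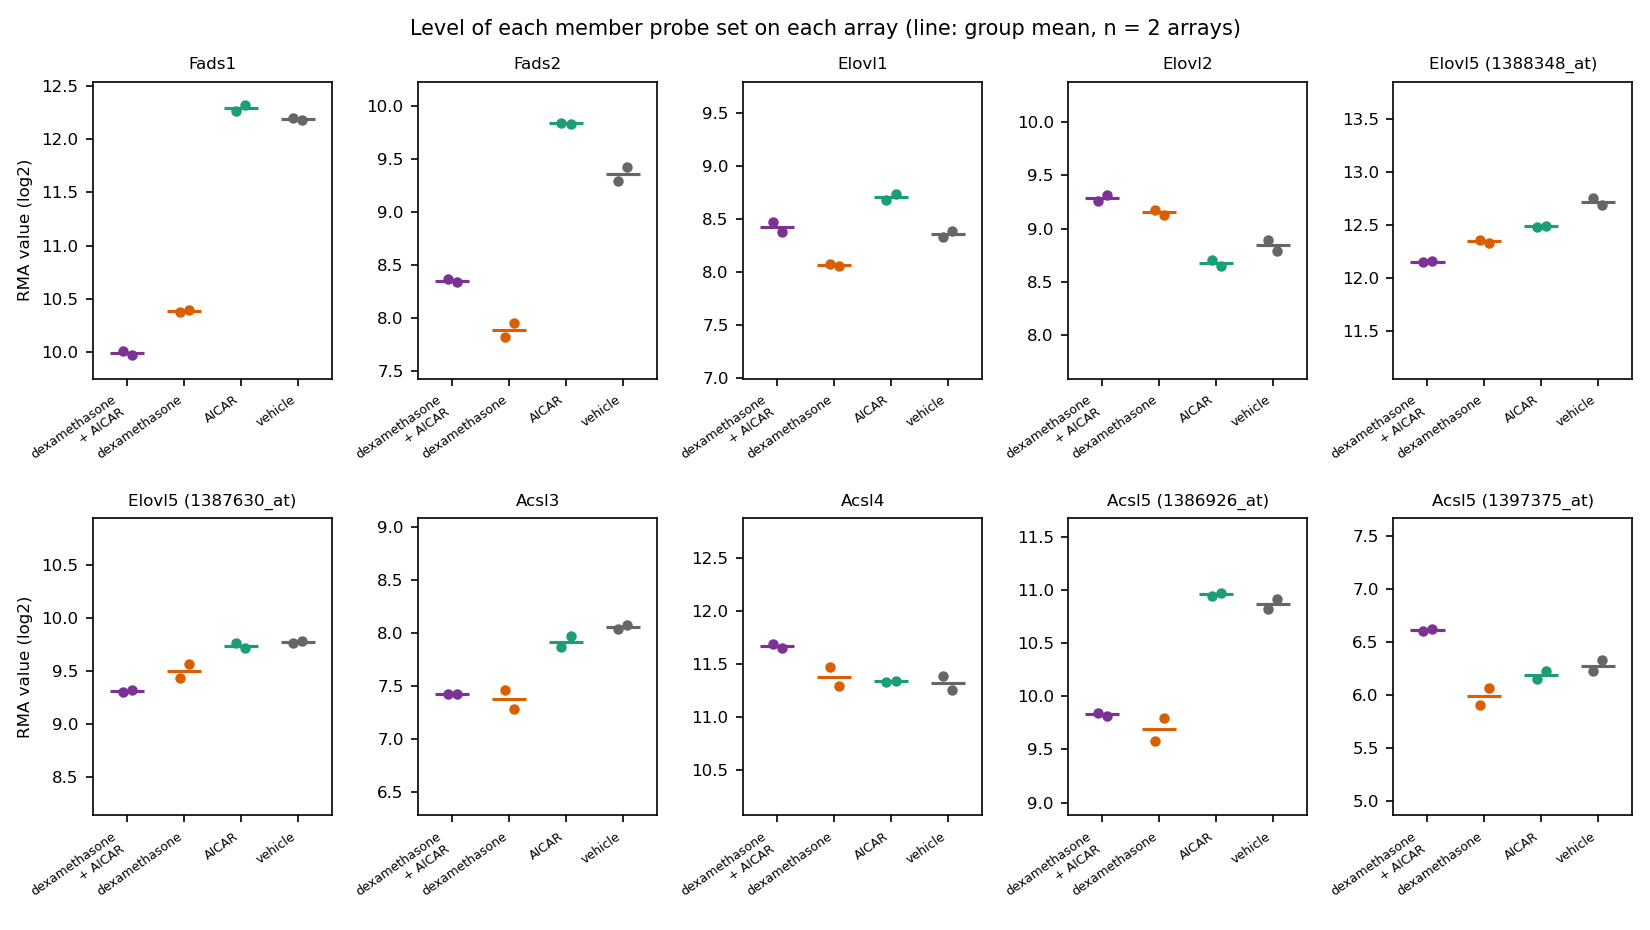
RMA value (log2) of each member probe set on each of the 8 arrays, in 1 panel per probe set, with the combination, dexamethasone, AICAR and vehicle from left to right. Points are arrays and lines are group means (n = 2); every panel spans the same number of log2 units. Fads1, Fads2 and the brighter Acsl5 probe set show both dexamethasone-treated groups below AICAR and vehicle, while the dimmer Acsl5 probe set is highest after the combination.

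Among the elongases, Elovl5 fell with dexamethasone in both probe sets, Elovl2 rose, and Elovl1 rose with AICAR and fell with dexamethasone. Elovl5, which lengthens the product of FADS2, read 12.15 and 12.16 after the combination, 12.36 and 12.33 after dexamethasone, 12.48 and 12.49 after AICAR, and 12.75 and 12.68 in vehicle on its leading probe set. The groups did not overlap, and the combination was the lowest. The difference from vehicle was -0.37 ± 0.07 after dexamethasone (adjusted p = 0.00607) and -0.57 ± 0.07, or 1.48-fold lower, after the combination (adjusted p = 3.78e-04).

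Combined treatment and dexamethasone alone differed for Elovl5 by -0.20 ± 0.07, which was not called (adjusted p = 0.0859) but was called after cyclic loess (-0.25, adjusted p = 0.0292), with a trended prior (adjusted p = 9.59e-05) or with dim probe sets filtered out (adjusted p = 0.0225). AICAR alone differed from vehicle by -0.23 ± 0.07 (adjusted p = 0.0623), and was called with a trended prior (adjusted p = 2.53e-05) or with that filter (adjusted p = 0.0152). The dimmer Elovl5 probe set read 9.30 and 9.33 after the combination, 9.44 and 9.56 after dexamethasone, 9.76 and 9.72 after AICAR, and 9.77 and 9.78 in vehicle. It had the same order of groups. Its difference from vehicle was -0.46 ± 0.07 after the combination (adjusted p = 0.00197) and -0.27 ± 0.07 after dexamethasone (adjusted p = 0.0350), and the second of these calls held only without dexamethasone replicate 2 when 1 array was left out (adjusted p up to 0.147 without another).

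Elovl2, which lengthens the products of FADS1, was the one member that rose after dexamethasone alone relative to vehicle. It read 9.26 and 9.32 after the combination, 9.18 and 9.13 after dexamethasone, 8.71 and 8.65 after AICAR, and 8.90 and 8.79 in vehicle. Both dexamethasone-treated groups were above both of the others. The combination stood 0.45 ± 0.08 above vehicle, or 1.36-fold (adjusted p = 0.0024), and 0.61 ± 0.08 above AICAR alone (adjusted p = 3.71e-04). Dexamethasone alone stood 0.31 ± 0.08 above vehicle (adjusted p = 0.0213), a call that ended when vehicle replicate 2 was left out (adjusted p = 0.124) or when either dexamethasone array was (adjusted p = 0.0882 and 0.0546). AICAR and vehicle differed by -0.16 ± 0.08 and were not told apart (adjusted p = 0.195). The interaction of 0.30 ± 0.11 was not called (adjusted p = 0.0973), though it was with a trended prior (adjusted p = 0.00977) or with dim probe sets filtered out (adjusted p = 0.0310).

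Elovl1, which lengthens mainly saturated and monounsaturated very long chains, read 8.47 and 8.37 after the combination, 8.07 and 8.05 after dexamethasone, 8.68 and 8.74 after AICAR, and 8.33 and 8.38 in vehicle. AICAR arrays were the highest, dexamethasone arrays the lowest, and the combination overlapped vehicle. The combination differed from vehicle by 0.07 ± 0.07 (adjusted p = 0.581, 95% interval -0.10 to 0.23). It stood 0.36 ± 0.07 above dexamethasone alone (adjusted p = 0.00893), a call that ended without combination replicate 1 (adjusted p = 0.0769). AICAR stood 0.35 ± 0.07 above vehicle (adjusted p = 0.0176) and dexamethasone -0.29 ± 0.07 from it (adjusted p = 0.0242). Both calls ended when either array of either group was left out, with adjusted p-values of 0.0580 to 0.0923 for AICAR and 0.0631 to 0.118 for dexamethasone. The combination differed from AICAR by -0.29 ± 0.07 (adjusted p = 0.0175), which was no longer called without either AICAR array (adjusted p = 0.0516 and 0.0931) or combination replicate 2 (adjusted p = 0.118). The interaction was 0.01 ± 0.10 (adjusted p = 0.971).

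Among the acyl-CoA synthetases, Acsl5 and Acsl3 fell with dexamethasone, while Acsl4 was higher after the combination alone. Acsl5, abundant in liver and intestine, read 9.85 and 9.82 after the combination, 9.58 and 9.80 after dexamethasone, 10.94 and 10.98 after AICAR, and 10.82 and 10.92 in vehicle on its leading probe set. The arrays with dexamethasone were all lower than those without. The difference from vehicle was -1.18 ± 0.09 after dexamethasone, or 2.27-fold lower (adjusted p = 4.33e-05), and -1.04 ± 0.09 after the combination (adjusted p = 5.29e-05). AICAR alone differed from vehicle by 0.09 ± 0.09 (adjusted p = 0.554, 95% interval -0.11 to 0.29) and the combination from dexamethasone by 0.14 ± 0.09 (adjusted p = 0.322), and neither was called.

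The dimmer Acsl5 probe set went against the leading one after the combination. It read 6.60 and 6.62 after the combination, 5.91 and 6.07 after dexamethasone, 6.15 and 6.23 after AICAR, and 6.22 and 6.32 in vehicle. The combination arrays were the highest of the 8. They stood 0.62 ± 0.08 above dexamethasone alone (adjusted p = 0.00102) and 0.34 ± 0.08 above vehicle (adjusted p = 0.0163); the second call ended without vehicle replicate 1 (adjusted p = 0.0901) or either combination array (adjusted p = 0.0695 and 0.0844). Its interaction of 0.71 ± 0.12 was called (adjusted p = 0.00483), while that of the leading probe set, 0.05 ± 0.13, was not (adjusted p = 0.834). Dexamethasone alone differed from vehicle by -0.29 ± 0.08 (adjusted p = 0.0442), a call that held only without dexamethasone replicate 2 when 1 array was left out (adjusted p up to 0.202 without another) and ended with cyclic loess (adjusted p = 0.0522) or centring on brighter probe sets (adjusted p = 0.0614). With the mean of both probe sets as the value of Acsl5, the combination stood 0.38 above dexamethasone (adjusted p = 0.00659).

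Acsl3, which activates fatty acids at the endoplasmic reticulum and lipid droplets, read 7.42 and 7.42 after the combination, 7.46 and 7.29 after dexamethasone, 7.87 and 7.97 after AICAR, and 8.04 and 8.08 in vehicle. Combination arrays lay inside the spread of the dexamethasone arrays, and both groups were below the other 2. The difference from vehicle was -0.63 ± 0.08 after the combination (adjusted p = 5.86e-04) and -0.68 ± 0.08, or 1.60-fold lower, after dexamethasone (adjusted p = 6.87e-04). The combination differed from dexamethasone by 0.05 ± 0.08 (adjusted p = 0.759, 95% interval -0.14 to 0.24), and AICAR differed from vehicle by -0.14 ± 0.08 (adjusted p = 0.322).

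Acsl4, which prefers arachidonic acid, read 11.69 and 11.65 after the combination, 11.47 and 11.29 after dexamethasone, 11.34 and 11.34 after AICAR, and 11.39 and 11.26 in vehicle. Dexamethasone, AICAR and vehicle overlapped, and the combination was above all 3. It stood 0.34 ± 0.09 above vehicle, or 1.27-fold (adjusted p = 0.0182), 0.33 ± 0.09 above AICAR (adjusted p = 0.0196) and 0.29 ± 0.09 above dexamethasone (adjusted p = 0.0469). None of these calls survived every removal of 1 array. The call against vehicle ended without vehicle replicate 2 or either combination array (adjusted p = 0.0653 to 0.113), and that against AICAR without any AICAR or combination array (adjusted p = 0.0664 to 0.102). The call against dexamethasone held only without dexamethasone replicate 1 when 1 array was left out (adjusted p up to 0.220 without another). Cyclic loess ended the calls against AICAR (adjusted p = 0.0835) and dexamethasone (adjusted p = 0.0965).

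Set against vehicle, the combination moved 9 of the 10 probe sets, 3 higher and 6 lower (26.9% of all probe sets passed: 13.3% rose and 13.6% fell), with a median of -0.51 and 7 to 9 calls without any 1 array. AICAR alone moved 2, both higher, Fads2 and Elovl1 (12.9% of all passed: 5.45% rose and 7.47% fell), and 0 to 2 were called without any 1 array. Added to dexamethasone, AICAR moved 5 of the 10, with Fads2, Elovl1, Acsl4 and the dimmer Acsl5 probe set higher and Fads1 lower (20.1% of all passed: 10.2% rose and 9.91% fell), and 3 to 5 were called without any 1 array. Added to AICAR, dexamethasone moved all 10, with 3 higher and 7 lower (30.8% of all passed: 15.9% rose and 14.9% fell), and 8 to 10 were called without any 1 array. The interaction was called for 2 of 10, 1 above and 1 below 0, a share near the 15.6% of all probe sets (8.63% above and 7.02% below). Comparisons that share a group share its arrays, so these counts are not independent of each other. Calls were more frequent among brighter probe sets. With dim ones filtered out, 15521 remained, all 10 members among them. Of the 15521, 6019 were called for dexamethasone against vehicle, 5072 for AICAR and 8042 for the combination. The combination against dexamethasone gave 6790 calls, that against AICAR 8625 and the interaction 5681. Member calls then changed for AICAR (2 higher, 1 lower), the combination against dexamethasone (4 and 3) and the interaction (2 and 1).

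**Figure D2:**
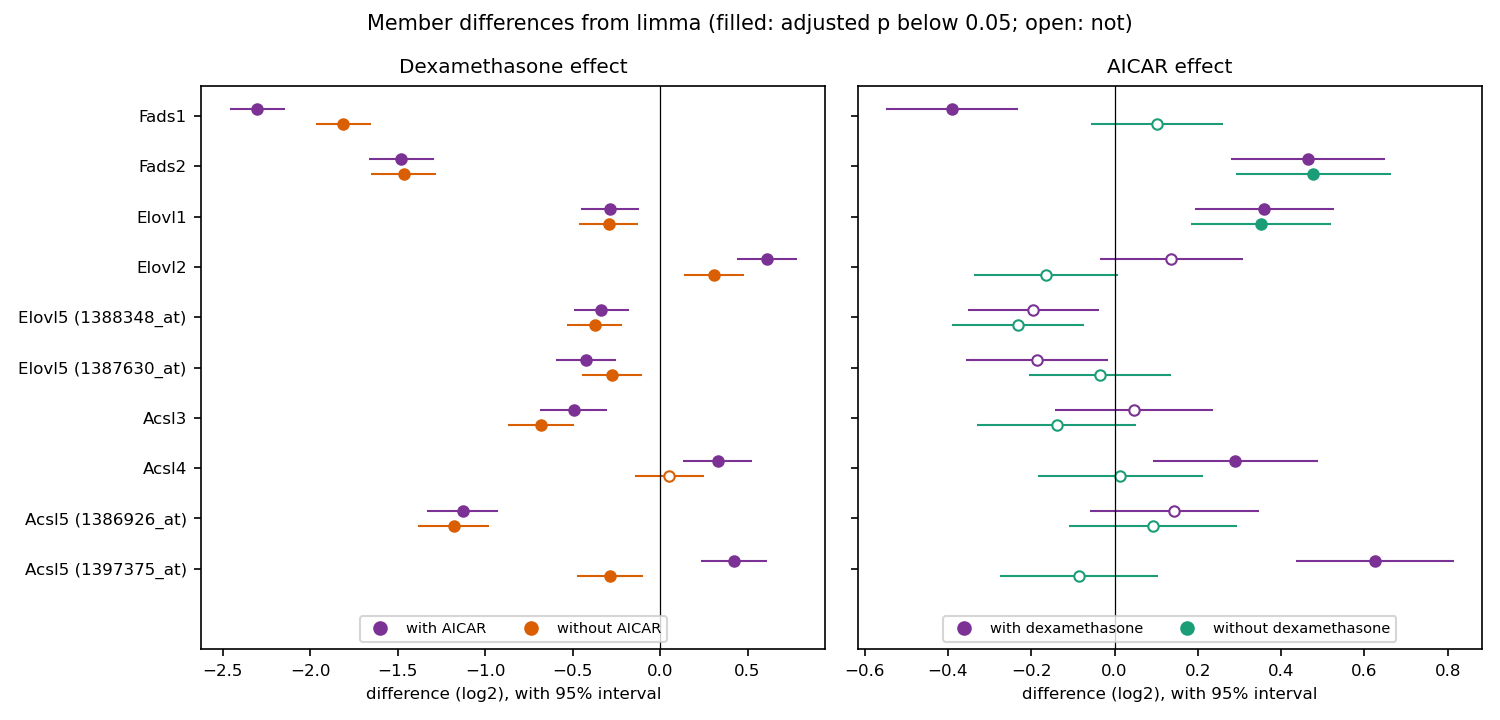
Dexamethasone effect (left) and AICAR effect (right) on each member probe set, as a log2 difference with its 95% interval from limma; the effect in the presence of the other agent is drawn above the effect in its absence. Filled points were called at an adjusted p below 0.05. Fads1 and the dimmer Acsl5 probe set, with interactions of -0.49 and 0.71, are the probe sets whose AICAR effects were called different.

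Other genes of the pathway were counted with 1 probe set each. Of 16 other desaturases, elongases and partners of the elongation cycle, 4 rose and 4 fell after dexamethasone relative to vehicle, 3 rose and 1 fell after AICAR, and 7 rose and 5 fell after the combination (of named genes 22.7%, 15.2% and 34.4% were called). Their medians were 0.16, 0.11 and 0.14, against -0.03, 0.00 and -0.01 over named genes. Without any 1 array the AICAR counts were 2 rises and 0 to 1 falls. Between the combination and dexamethasone alone 7 rose and 3 fell (3 to 7 and 1 to 3 without any 1 array), against 25.4% of named genes called.

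Scd, the stearoyl-CoA desaturase that makes monounsaturated fatty acids and is no part of the polyunsaturated route, stood apart from Fads1 and Fads2. It read 9.65 and 9.62 after the combination, 11.60 and 11.60 after dexamethasone, 11.82 and 11.88 after AICAR, and 11.73 and 11.72 in vehicle. Only the combination arrays were low. The combination differed from dexamethasone by -1.96 ± 0.07 (adjusted p = 6.32e-07) and dexamethasone from vehicle by -0.13 ± 0.07 (adjusted p = 0.257), and the interaction was -2.08 ± 0.10 (adjusted p = 6.48e-06). Its paralog Scd2 had the group order of Fads2 on its leading probe set. That probe set differed from vehicle by -1.55 ± 0.08 after dexamethasone (adjusted p = 6.76e-06) and -1.18 ± 0.08 after the combination (adjusted p = 1.86e-05). The dimmer Scd2 probe sets were not called in either comparison (0.28, 0.11 and -0.15 after dexamethasone). Fads3, the third gene of the desaturase cluster, read 6.63 and 6.63 after the combination, 5.86 and 5.87 after dexamethasone, 5.63 and 5.85 after AICAR, and 5.27 and 5.48 in vehicle. It stood 1.25 ± 0.10 above vehicle after the combination (adjusted p = 3.47e-05), where Fads1 and Fads2 fell.

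The chain is lengthened in a cycle of condensation, reduction, dehydration and reduction, and its later steps did not move 1 way. Hsd17b12, which encodes the ketoacyl-CoA reductase, stood 0.57 ± 0.07 above vehicle after dexamethasone (adjusted p = 6.56e-04), and the dehydratase gene Hacd2 -0.96 ± 0.07 from it (adjusted p = 3.66e-05). A dimmer Hacd2 probe set differed by -0.14 and was not called (adjusted p = 0.303). Cyb5r3, the reductase that feeds electrons to the desaturases through cytochrome b5, differed from vehicle by -0.71 ± 0.08 after dexamethasone (adjusted p = 3.46e-04) and by -0.98 ± 0.08 after the combination (adjusted p = 3.34e-05). Cyb5b, an outer mitochondrial cytochrome b5, rose in all 3 treated groups, by 0.89 ± 0.07 after the combination (adjusted p = 3.25e-05), 0.58 ± 0.07 after dexamethasone (adjusted p = 6.31e-04) and 0.63 ± 0.07 after AICAR (adjusted p = 0.00102). Elovl6, which lengthens palmitate, stood 1.01 ± 0.11 above vehicle after the combination (adjusted p = 1.61e-04) and 0.74 ± 0.11 above it after AICAR (adjusted p = 0.00354); its dimmer probe set differed by 1.40 (adjusted p = 5.15e-05) and 0.34 (adjusted p = 0.0981).

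Of 8 other long-chain acyl-CoA synthetases, 1 fell after dexamethasone relative to vehicle, none was called after AICAR, and 3 fell after the combination (0 to 3 without any 1 array). The medians were -0.03, 0.09 and -0.16, and of named genes 22.7%, 15.2% and 34.4% were called. The gene that fell with dexamethasone was Slc27a5, which encodes the bile acid and very long chain acyl-CoA synthetase of liver (-0.63 ± 0.07, adjusted p = 4.91e-04). Acsl1, the main isoform of liver, differed from vehicle by -0.14 ± 0.08 after dexamethasone on its leading probe set and was not called (adjusted p = 0.249), nor was another probe set (0.07, adjusted p = 0.668), while the remaining one was lower (-0.40, adjusted p = 0.00484). After the combination Acsl1 was among the genes that fell, with -0.32 ± 0.08 on its leading probe set (adjusted p = 0.014). In the same order, its other probe sets differed by 0.004 (adjusted p = 0.981) and -0.66 (adjusted p = 1.87e-04).

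Of 11 genes of peroxisomal chain shortening, the last step on the way to docosahexaenoic acid, 6 fell and none rose after dexamethasone relative to vehicle (4 to 6 without any 1 array), 1 rose and 5 fell after AICAR, and 2 rose and 4 fell after the combination (1 to 2 rises without any 1 array). The medians were -0.26, -0.05 and -0.01, and of named genes 22.7%, 15.2% and 34.4% were called. Ehhadh, the bifunctional enzyme of peroxisomal oxidation, fell in all 3 treated groups, by 2.43 ± 0.10 after the combination (adjusted p = 5.04e-07), 2.12 ± 0.10 after dexamethasone (adjusted p = 2.43e-06) and 1.11 ± 0.10 after AICAR (adjusted p = 3.16e-04). Acox2, the branched-chain acyl-CoA oxidase, fell with each agent alone, by 0.68 ± 0.07 after dexamethasone (adjusted p = 3.00e-04) and 1.08 ± 0.07 after AICAR (adjusted p = 8.41e-05), with an interaction of 2.00 ± 0.10 (adjusted p = 9.92e-06).

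Of 14 genes that exchange or release acyl chains in phospholipids, 3 rose and 4 fell after dexamethasone relative to vehicle, 2 rose after AICAR (2 to 3 without any 1 array), and 3 rose and 6 fell after the combination (4 to 6 falls without any 1 array). The medians were -0.05, 0.12 and -0.17, and of named genes 22.7%, 15.2% and 34.4% were called. Lpcat3, which places polyunsaturated chains in phosphatidylcholine, differed from vehicle by -0.43 ± 0.07 after the combination (adjusted p = 0.00206), -0.42 ± 0.07 after dexamethasone (adjusted p = 0.00404) and 0.47 ± 0.07 after AICAR (adjusted p = 0.00464); its dimmer probe set differed by 0.21 after AICAR and was not called (adjusted p = 0.118). Pla2g4a, the cytosolic phospholipase that releases arachidonic acid, fell by 1.99 ± 0.14 after the combination (adjusted p = 1.49e-05) and 1.22 ± 0.14 after dexamethasone (adjusted p = 4.27e-04). The secreted phospholipase gene Pla2g12a stood 3.27 ± 0.11 above vehicle after the combination (adjusted p = 2.60e-07) and 1.78 ± 0.11 above it after dexamethasone (adjusted p = 1.40e-05).

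Among 13 transcription regulators of these genes, 4 rose and 2 fell after dexamethasone relative to vehicle (1 to 5 and 0 to 3 without any 1 array), 4 rose and 1 fell after AICAR (2 to 4 rises without any 1 array), and 2 rose and 6 fell after the combination (1 to 2 and 4 to 6). The medians were 0.12, 0.19 and -0.17, and of named genes 22.7%, 15.2% and 34.4% were called. Srebf1, the regulator SREBP-1 that induces desaturase genes, read 9.81 and 9.70 after the combination, 10.50 and 10.61 after dexamethasone, 10.18 and 10.16 after AICAR, and 10.29 and 10.16 in vehicle. On this leading probe set dexamethasone arrays were the highest and combination arrays the lowest. On the other probe set dexamethasone stood 0.35 above vehicle (adjusted p = 0.0115) and AICAR 0.34 above it (adjusted p = 0.0200). The combination there differed from vehicle by -0.34 (adjusted p = 0.00819). The combination differed from dexamethasone by -0.80 ± 0.08 (adjusted p = 2.76e-04), with -0.69 on the other probe set (adjusted p = 3.02e-04). Insig1 and Insig2, which hold SREBP in the endoplasmic reticulum, differed between the same groups by -0.89 ± 0.07 (adjusted p = 6.26e-05) and -0.83 ± 0.08 (adjusted p = 1.33e-04). Insig1 stood 0.72 ± 0.07 above vehicle after dexamethasone (adjusted p = 1.87e-04) and 0.47 ± 0.07 after AICAR (adjusted p = 0.00456). It read 10.01 and 9.96 after the combination and 10.18 and 10.13 in vehicle. Insig2 differed from vehicle by -0.84 ± 0.08 after the combination (adjusted p = 7.08e-05). Ppara, the fatty acid receptor, stood 0.61 ± 0.12 above vehicle after dexamethasone (adjusted p = 0.0087), a call that ended without vehicle replicate 2 or dexamethasone replicate 2 (adjusted p up to 0.0619).

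**Figure D3:**
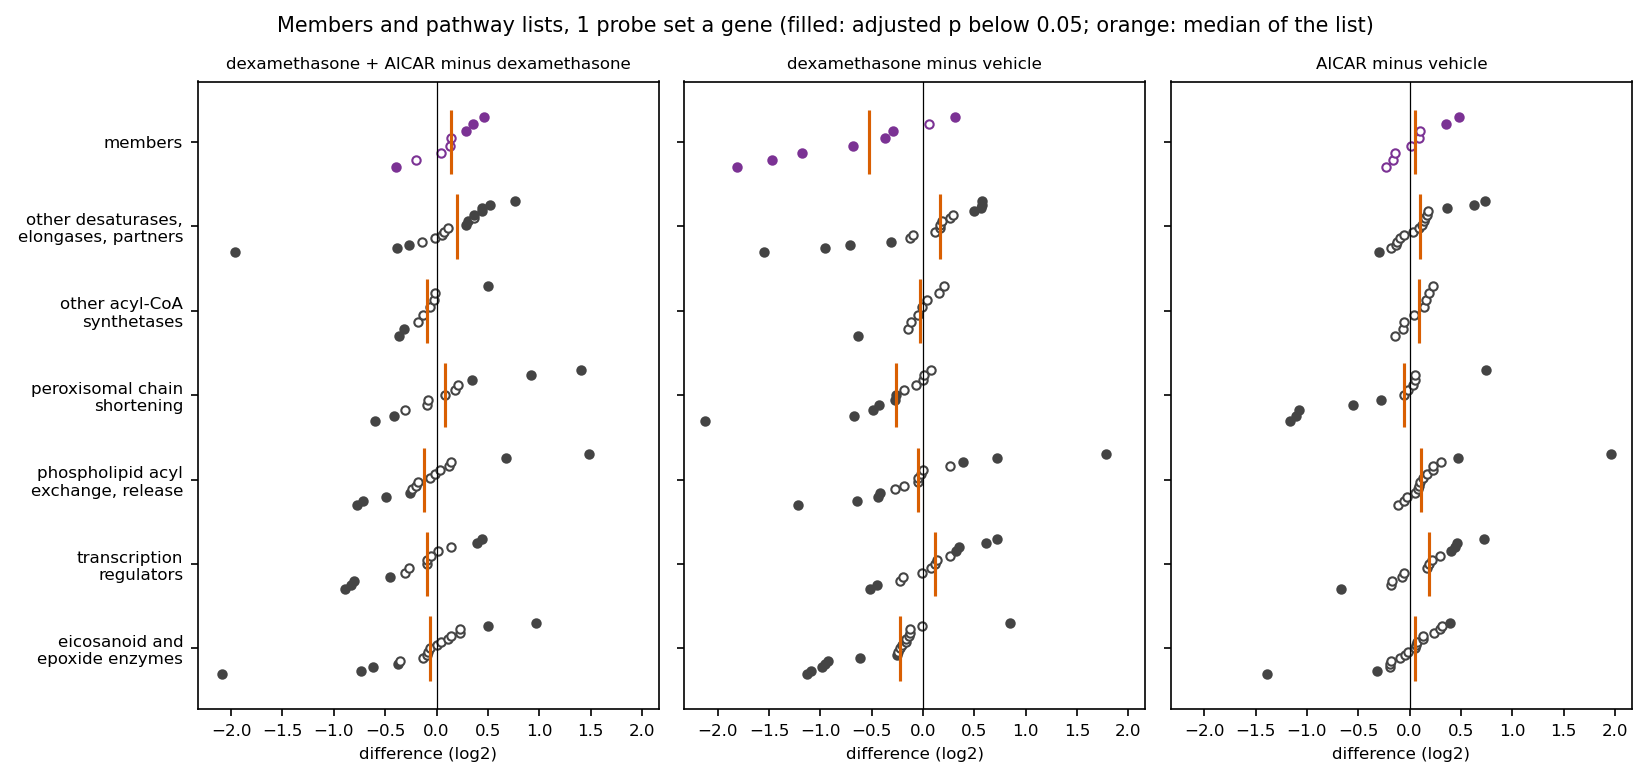
Log2 difference of each gene (1 probe set a gene) for the 8 members and the 6 lists, for the combination against dexamethasone, dexamethasone against vehicle, and AICAR against vehicle. Filled points were called at an adjusted p below 0.05, and orange bars are list medians. The members' median lies at 0.14, -0.53 and 0.05 in the 3 panels.

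Of the 3627 genes compared, those whose values over the 8 arrays were most like the members' were named as a description, since 8 arrays in 4 groups give high coefficients to many genes. For Fads1 these were Cyp2a2, Ccdc80, Itih2, Csad and Idh1 (Pearson r of 0.999 to 0.996). For Fads2 they were Cavin3, Dap, Anapc11, Psmb8 and Tmem63a (0.996 to 0.993), and none was shared with Fads1. For Acsl5 they were Stab2, a sinusoidal endothelial marker, then Gstt3, Blvra, Osgin1 and Plaat3 (0.999 to 0.994). The best coefficients were 0.994 for Elovl2 with Ecpas, 0.993 for Elovl5 with Serpine2, 0.991 for Acsl3 with Cmtm3, 0.988 for Elovl1 with Phkg2 and 0.969 for Acsl4 with Mrps18c.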

How the data were processed

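The deposited table holds log2 values per probe set, produced by the authors by RMA (affy software), as the submitters' processing notes state; tool versions are not given in the sources used here. The base is not stated and was read as log2 from the range of the values. RMA sets all arrays to 1 distribution and understates fold changes of dim probe sets. Total RNA was labelled as biotin cRNA, per the labels' protocols.

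Of 31099 probe sets, 57 array controls were left out. Names came from the platform annotation: 20826 of the 31042 remaining had 1 symbol, 436 several and 9780 none. limma 3.58.1 in R 4.3.3 was fitted over all 8 arrays with 1 coefficient per group (4 residual and 4.58 prior degrees of freedom), and was tested on simulated data. An exact permutation test of 2 arrays against 2 has 0.333 as its smallest two-sided p, and was not used. The number of arrays limits precision. Tables and figures were made with Python 3.11.15.

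All 10 member probe sets were named in every comparison. From each of the 6 pathway lists up to 4 called genes with the smallest p per comparison could be named. Likeness was ranked among genes with a mean above the overall median and group means at least 0.5 apart. The members and lists were chosen with earlier results of these data known. Alternatives left out 1 array at a time, filtered dim probe sets, used a trended, robust prior, fitted only the 2 groups of a comparison, added the replicate number as a block, rescaled by cyclic loess or by centring on brighter probe sets, or averaged the probe sets of a gene.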

Additional observations from a re-analysis of the deposited data

Results flagged for a closer look

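The effect of AICAR differed with and without dexamethasone, by limma's interaction test adjusted over all probe sets, for 2 of the 10 member probe sets (15.6% of all probe sets were called). For Fads1 it was -0.39 ± 0.07 with dexamethasone and 0.10 ± 0.07 without, a difference of -0.49 ± 0.10 (log2 scale, SE, n = 2 arrays per group, adjusted p = 0.0112). For the dimmer Acsl5 probe set it was 0.62 ± 0.08 with dexamethasone and -0.09 ± 0.08 without, a difference of 0.71 ± 0.12 (adjusted p = 0.00483), which the brighter Acsl5 probe set did not share (0.05 ± 0.13). Which transcripts each Acsl5 probe set detects was not analysed here.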

How the results depend on the processing

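Of 878 member values under other settings, 803 kept their side of the threshold, 59 lost a call, 16 gained one and none of the called ones reversed; 21 values that were not called changed sign. Without 1 array 48 of 480 lost a call. Called member probe sets then numbered 5 to 7 for dexamethasone against vehicle, 0 to 2 for AICAR, 7 to 9 for the combination, 3 to 5 for the combination against dexamethasone, 8 to 10 against AICAR and 2 to 2 for the interaction. Over all probe sets the counts were 3738 to 5303 (5726 with all arrays), 1447 to 3819 (4011), 5677 to 8386 (8350), 3698 to 5985 (6233), 6510 to 9596 (9563) and 2910 to 3991 (4858). A fit of only the groups compared left 5 member calls for dexamethasone and 2345 probe sets for AICAR. A trended prior gave 6048 probe sets and 4 members for AICAR, and 4 members for the interaction. The share of calls that were higher was 57.6% for dexamethasone after centring on brighter probe sets, against 47.0% as deposited; 56.1% against 42.2% for AICAR; and 44.0% against 55.1% for the interaction. The causes were not tested.

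The replicate number as a block left the counts of member calls at 9, 2, 9, 5, 10 and 2, and gave 5448, 3539, 8132, 6041, 9330 and 4484 probe sets in the same order. Deviations of same-numbered arrays correlated at -0.04 to 0.16 between groups, highest for vehicle with dexamethasone. With 2 arrays per group, this check cannot settle whether same-numbered arrays share more than a number.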

Other observations

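Enzymes that act on arachidonic acid downstream of the members moved in both directions. Of 17 eicosanoid and epoxide enzymes, 1 rose and 7 fell after dexamethasone relative to vehicle (6 fell without any 1 array), 1 rose and 2 fell after AICAR (none rose without any 1 array), and 3 rose and 7 fell after the combination (of named genes 22.7%, 15.2% and 34.4% were called). The medians were -0.23, 0.05 and -0.26. Ptgs1, the constitutive cyclooxygenase, differed from vehicle by -3.01 ± 0.12 after the combination (limma, adjusted p = 4.93e-07, n = 2 arrays per group), with -0.68 on its dimmer probe set (adjusted p = 0.0233). Hpgds, the prostaglandin D synthase of blood cells, differed by -1.86 ± 0.10 (adjusted p = 3.73e-06) and Ltc4s, the leukotriene C synthase, by -1.71 ± 0.12 (adjusted p = 1.75e-05). The summed Kupffer cell and macrophage markers were 2613 to 2648 after the combination and 7149 to 7256 in vehicle. Of those 12 markers 11 fell and 1, Lyz2, rose, with a median difference of -3.97. Lyz2 was the brightest of them after the combination. The part of these markers in the falls of the enzymes was not tested.

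Ephx2, the soluble epoxide hydrolase, was -1.38 ± 0.08 from vehicle after AICAR (adjusted p = 3.15e-05) and 1.26 ± 0.08 above AICAR after the combination (adjusted p = 7.86e-06). Cyp2c23, an arachidonic acid epoxygenase, fell by 1.36 ± 0.07 after the combination (adjusted p = 2.96e-06) and 0.98 ± 0.07 after dexamethasone (adjusted p = 3.50e-05) relative to vehicle.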
